A study of Mus musculus with 12 samples.

Results

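The small intestine of mice induced with LCWE was compared with that of mice given phosphate-buffered saline (PBS), across every gene that reached 0.5 RPKM (reads assigned to a gene, scaled to its length and to the size of the library) in at least 3 of the 6 intestinal libraries. This rule kept 17510 of the 34348 genes in the expression table, and 99 of the 17510 reached the minimum through the libraries of 1 group alone. The 6 intestinal libraries are part of a series of 12, whose other 6 are from liver. All mice were C57BL/6. The 3 PBS libraries carry the replicate numbers 2, 3 and 4 and the 3 LCWE libraries the numbers 1, 2 and 4. The labels give neither the dose, the time after induction, the age or the sex, nor whether the libraries are from separate mice, and every p given below therefore reflects only how far these libraries scatter, some of which may be technical. They also do not say which stretch of the small intestine was taken. LCWE usually stands for Lactobacillus casei cell wall extract. Injected into mice it causes a vasculitis of the coronary arteries, and the model is used to study Kawasaki disease. The authors' comparison table labels the treated groups LCWECFA, and CFA is not explained in the sources used here, so a further agent shared by the LCWE groups cannot be told apart from LCWE.

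The small intestine is lined by a single layer of epithelium. Its absorptive cells, the enterocytes, split sugars and peptides at their brush border, take up fatty acids and cholesterol, and send fat onward in chylomicrons built around apolipoproteins. Secretory cells make mucus (goblet cells), antimicrobial peptides (Paneth cells) and hormones (enteroendocrine cells), and all of these arise from stem cells in the crypts. The gut is also patterned along its length. The factor Gata4 and much of fat and lactose handling belong to the duodenum and jejunum, while bile acids are recovered in the ileum and posterior Hox genes mark the lower gut.

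The 6 libraries held 30294594 to 40253006 reads on genes, and each had 16966 to 17969 genes at 0.5 RPKM or more. Fabp2, the fatty acid binding protein of enterocytes, was the check of the tissue, and its levels ranged from 676 to 9408 RPKM across the 6 libraries. Markers of the stomach were at or near 0 in all of them, with a summed level of the 7 genes in the table between 0.0224 and 0.140 RPKM, and Gkn2, Tff1 and Pgc had no read. Pearson correlations of log2 values across genes were 0.972 to 0.982 among PBS libraries, 0.963 to 0.977 among LCWE libraries and 0.947 to 0.977 between the groups, so that the closest pair across groups was about as alike as pairs within one. The first principal component held 43.1% of the variance and ordered the libraries from PBS replicate 2 (-35.5) through PBS replicates 3 (-18.9) and 4 (-10.1) to LCWE replicates 1 (-4.02), 2 (21.6) and 4 (46.9). PBS replicate 2 and LCWE replicate 4 were its ends.

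No gene passed the test. With limma on log2(RPKM + 0.5), 3 libraries against 3, 0 of 17510 genes (0%) reached an adjusted p below 0.05, and the smallest Benjamini-Hochberg adjusted p was 0.154. At an unadjusted p below 0.05 there were 2202 genes (12.6%), of which 1346 (7.69%) were higher and 856 (4.89%) lower in LCWE, where 5% of the genes would be 875.5. The same test on the recovered reads (limma voom) also called 0 genes, with 2221 below an unadjusted p of 0.05. The groups did not overlap for 3384 genes (19.3%), with all 3 LCWE libraries above all 3 PBS libraries for 2307 (13.2%) and below them for 1077 (6.15%). When the spread was estimated together with the liver libraries, in 1 limma fit over the 4 groups, 213 of 18619 genes (1.14%) passed, 78 of them higher (0.419%) and 135 lower (0.725%) in LCWE. Without PBS replicate 2 and LCWE replicate 4, the ends of the first component, 0 genes passed in the fit of the intestine alone. This setting leaves PBS replicates 3 and 4 and LCWE replicates 1 and 2. It drops the libraries farthest apart on a component that ordered PBS before LCWE. Smaller differences and fewer low p can thus follow from the choice itself, here and wherever this setting is given below. Leaving out LCWE replicate 1 gave 70 calls (13 higher, 57 lower) and leaving out LCWE replicate 2 gave 4.

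By sign alone, 12079 of the tested genes (69.0%) were higher and 5431 (31.0%) lower in LCWE, so that a gene list with about that division is like the genes at large. The median log2 fold change of all tested genes was 0.11, and it was 0.03 after quantile scaling and 0.01 after median-ratio scaling, a shift of about the size of many small differences below. The share of genes at an unadjusted p below 0.05 that were higher in LCWE was accordingly 61.1%, 46.0% and 39.8%. In what follows a gene is called higher or lower by its values only. An unadjusted p is given as a description, and "passed with 4 groups" means an adjusted p below 0.05 in the limma fit over the 4 groups. Where a list count stands without a share, the shares of all genes are 7.69% higher and 4.89% lower at an unadjusted p below 0.05. With 4 groups they are 0.419% higher and 0.725% lower. Where only the fit over 4 groups passed a gene, the fit of the intestine alone did not. The fit over 4 groups takes 1 spread per gene over both tissues. Genes near 0 RPKM in liver, such as Lct (0.0280 to 0.0697 RPKM there), scatter little in the liver libraries. For such genes this can make the p of that fit smaller. Values in single libraries are listed in the order of the replicate numbers given above.

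**Figure D1:**
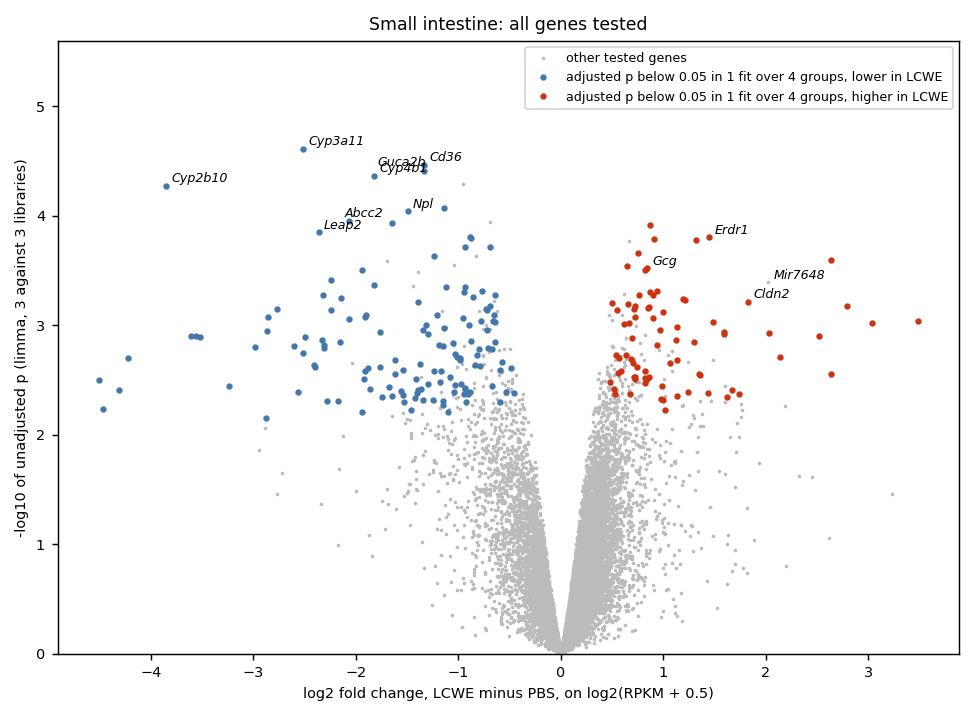
Each point is 1 of the 17510 tested genes, with the log2 fold change (LCWE minus PBS, on log2(RPKM + 0.5)) on the x axis and -log10 of the unadjusted limma p on the y axis. Coloured points are those among them with an adjusted p below 0.05 in 1 fit over the 4 groups. The lower genes reach further from 0 than the higher ones at the top of the plot, where Cyp3a11, Cd36, Guca2b and Cyp4b1 have the smallest p.

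The 12 lower genes with the smallest p were led by enzymes and carriers of enterocytes. Cyp3a11, a cytochrome P450 that oxidises drugs and bile acids (mm10, chr5:145854426-145879964, minus strand), had 36.5, 48.5 and 43.7 RPKM under PBS and 10.5, 5.26 and 6.23 RPKM under LCWE. It was 5.73-fold lower on the log2(RPKM + 0.5) scale (log2 fold change -2.52 ± 0.25 SE, n = 3 per group, limma adjusted p = 0.154, 0.00230 with 4 groups). The highest LCWE library lay below the lowest PBS library by more than the range within either group.

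Cyp2b10 (chr7:25897620-25926624, plus strand), a P450 induced through the receptor CAR, had the lowest levels of the set under LCWE. Its levels were 20.5, 12.8 and 6.67 RPKM under PBS and 0.353, 0.764 and 0.112 RPKM under LCWE, from 427 to 1656 reads against 8 to 56 reads. The log2 fold change was -3.86 ± 0.43 (14.5-fold lower, limma adjusted p = 0.154, 0.00234 with 4 groups). Cyp4b1 (chr4:115624725-115647723, minus strand), another P450, was 3.54-fold lower, with 20.9, 24.2 and 19.8 RPKM against 7.71, 5.55 and 4.38 RPKM.

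Cd36 (chr5:17781690-17888801, minus strand) is the fatty acid translocase of the cell surface. It had 8.20, 5.91 and 6.56 RPKM under PBS and 2.22, 2.57 and 2.43 RPKM under LCWE, a tight separation with a log2 fold change of -1.33 ± 0.14 (limma adjusted p = 0.154, 0.0144 with 4 groups). Guca2b (chr4:119656607-119658954, minus strand), which encodes uroguanylin, the peptide that sets salt and water secretion into the gut, differed as much, from 85.1, 98.8 and 80.1 RPKM to 37.8, 37.5 and 28.9 RPKM. Leap2, a liver and gut peptide that opposes ghrelin at its receptor, was 5.15-fold lower (10.8, 9.65 and 6.09 RPKM against 0.749, 2.06 and 1.22 RPKM). Abcc2, which exports conjugated bile pigments and drugs across the apical membrane, was 3.14-fold lower (16.9, 23.4 and 22.6 RPKM against 6.64, 7.89 and 4.69 RPKM).

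The remaining lower genes of this set were Npl (2.82-fold), an enzyme of sialic acid breakdown, Pcx (1.91-fold), the mitochondrial pyruvate carboxylase, Cyp2d22 (1.84-fold), Osgin1 (1.62-fold) and Mir215 (2.20-fold). All of the 12 but Osgin1 passed with 4 groups, where Osgin1 had an adjusted p of 0.247. Adjusted p in the intestine alone ran from 0.154 to 0.186 over these genes and the 12 higher ones, which are described next.

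The higher genes had smaller differences. Cldn2 (chrX:139800828-139811386, plus strand) encodes claudin 2, which forms cation and water pores in the tight junction. Its levels were 15.7, 20.2 and 36.2 RPKM under PBS and 80.8, 68.0 and 98.3 RPKM under LCWE, 3.54-fold higher with a log2 fold change of 1.83 ± 0.30 (limma adjusted p = 0.186, 0.0144 with 4 groups). PBS replicate 4 was the highest of its group and lay well below the lowest LCWE library, replicate 2.

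Gcg (chr2:62474530-62483650, minus strand), from which enteroendocrine L cells make the peptides GLP-1 and GLP-2, was 1.79-fold higher, at 21.0, 26.7 and 27.8 RPKM against 43.3, 44.9 and 47.0 RPKM. Klk1, a tissue kallikrein, was 1.76-fold higher at 29.8, 35.6 and 34.9 RPKM against 60.6, 52.3 and 65.4 RPKM. Erdr1 had 40.9, 46.8 and 41.2 RPKM under PBS and 87.6, 145 and 129 RPKM under LCWE. Its symbol was not matched in the GENCODE M21 annotation, and reads of near-identical copies of this pseudoautosomal gene may have been divided or dropped in the authors' counting.

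Pdia5, a protein disulfide isomerase of the endoplasmic reticulum, was 1.56-fold higher and Ehf, an epithelial ETS factor, 1.41-fold. Ampd3, an AMP deaminase, was 1.69-fold higher, Arhgef10l, a guanine nucleotide exchange factor, 1.87-fold, Sgf29, a subunit of the SAGA complex, 1.58-fold and Hoxb3os, an antisense transcript of the Hoxb cluster, 1.81-fold. These all passed with 4 groups. Hoxb3os lies over Hoxb3 and Hoxb2 on the opposite strand, and since the use of strand in the counting is not stated, reads of these genes cannot be told apart. The same holds for Ampd3, Klk1, Sgf29 and Pcx, each of which overlaps another gene on the opposite strand, and Pdia5 holds a predicted gene on its own strand.

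The set also held 3 microRNA genes, which are short and rest on few reads of a library of total RNA. Their mature sequences from RefSeq (GRCm38.p6) are given to show what the names stand for, with the seed, bases 2 to 8, in capitals. No seed is shared among them. The libraries do not measure mature microRNAs, since the reads fall on the hairpin gene or its host transcript.
miR-215-5p: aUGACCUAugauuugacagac
miR-215-3p: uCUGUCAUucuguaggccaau
miR-719: aUCUCGGCuacagaaaaauguu
miR-7648-5p: cCGCGUUCcgggcucggcgc
miR-7648-3p: aGGGCUGGgcccgggacgcgg
Mir215 (chr1:185313581-185313692, plus strand), whose product is enriched in gut epithelium, had 32, 33 and 32 reads under PBS and 17, 16 and 12 reads under LCWE, and it overlaps Iars2 and 2010103J01Rik. Mir719 (1.54-fold higher) lies within Nupl1 and Mir7648 (4.06-fold higher) within Alg10b, on the same strand in both cases. Mir7648 rested on 3, 1 and 1 reads under PBS against 7, 11 and 11 reads under LCWE. Neither Mir719 nor Mir7648 passed with 4 groups (adjusted p = 0.444 and 0.187, limma).

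Promoters of the 12 lower and 12 higher genes were searched on both strands for letters of 3 known motifs, CAAAGTCCA for HNF4, AGATAA for GATA factors and TATAAA for the TATA box, of which none contains another, though neighbouring matches can share an end base. RefSeq start sites were found for 9 of the lower genes (10 windows) and 8 of the higher genes (11 windows). The HNF4 letters stood in 1 window of the lower set, that of Cyp3a11, and in 0 of the higher set, against 0.384% of 32851 windows of all genes. GATA letters were in 0 windows of the lower set and in 1 of the higher set, that of Ampd3 (9.99% of all windows). TATA letters were in 1 lower window (Cyp3a11) and in 2 higher windows (Cldn2 and Gcg), where 12.4% of all windows had them. The windows of Cyp3a11, the lower gene with the smallest p, and of Cldn2, chosen after the values were seen as the higher protein-coding gene with the largest fold of the 12, are printed on the gene's own strand, from 250 bases upstream to the base before the start site, with the HNF4 letters in capitals for Cyp3a11 (chr5:145879855-145880104, minus strand) and the TATA letters in capitals for Cldn2 (chrX:139800558-139800807, plus strand). The windows searched spanned the same 250 bases. A match describes the letters only.
Cyp3a11: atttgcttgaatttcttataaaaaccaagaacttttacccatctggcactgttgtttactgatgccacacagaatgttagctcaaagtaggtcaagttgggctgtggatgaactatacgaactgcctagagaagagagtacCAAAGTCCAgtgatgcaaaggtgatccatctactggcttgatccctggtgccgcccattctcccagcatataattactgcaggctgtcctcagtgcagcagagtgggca
Cldn2: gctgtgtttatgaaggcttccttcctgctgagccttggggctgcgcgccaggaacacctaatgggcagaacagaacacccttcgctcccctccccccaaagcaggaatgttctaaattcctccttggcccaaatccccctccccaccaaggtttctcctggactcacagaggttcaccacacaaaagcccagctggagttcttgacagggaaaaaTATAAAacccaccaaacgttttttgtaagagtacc

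Fat absorption was the enterocyte function with the widest difference. Of 21 genes of fatty acid and cholesterol uptake, triglyceride assembly and apolipoproteins, all of which passed the filter, 19 were lower under LCWE, all 19 with an unadjusted p below 0.05, and the groups did not overlap for 18 of them. For comparison, 4.89% of all tested genes were lower at that p, and 6.15% were lower without overlap. The median log2 fold change of the 21 was -1.10, against 0.11 for all genes. With 4 groups 5 passed (Apoa4, Apoc2, Mttp, Cd36 and Dgat2), all lower (0.725% of all genes in that fit were). In tissue pieces, fewer cells of a type and less RNA per cell cannot be told apart, here and in all groups of genes below.

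Apoa4, an apolipoprotein of chylomicrons that also signals satiety, had 6795, 3054 and 1365 RPKM under PBS and 454, 297 and 127 RPKM under LCWE (log2 fold change -3.56 ± 0.67, limma adjusted p = 0.195, 0.0170 with 4 groups). The groups did not overlap, and within PBS the libraries also lay far apart, with replicate 2 at the top. Apoc2, the activator of lipoprotein lipase, had 140, 66.0 and 29.8 RPKM against 9.01, 12.4 and 9.77 RPKM, and Apoc3 differed by -1.64 ± 0.43 on the log2 scale.

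Fabp2 was 4.36-fold lower, with 9408, 9206 and 5747 RPKM for PBS but 3350, 2656 and 676 RPKM for LCWE. Fabp1, its relative shared with liver, was the 1 lower gene whose groups overlapped, at 1579, 398 and 98.3 RPKM against 50.9, 75.2 and 123 RPKM. Mttp loads lipid onto apolipoprotein B. It had 251, 174 and 134 RPKM under PBS and 93.5, 82.3 and 45.5 RPKM under LCWE, and Apob itself was 2.25-fold lower.

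Dgat2, which makes the last bond of triglyceride, showed almost no spread among PBS libraries (9.28, 9.06 and 9.49 RPKM) and stood at 6.12, 5.20 and 4.47 RPKM under LCWE (limma adjusted p = 0.186, 0.0201 with 4 groups). Dgat1 was 2.01-fold and Mogat2 1.58-fold lower. The sterol uptake channel Npc1l1 had 44.9, 47.8 and 46.8 RPKM against 33.2, 18.2 and 11.1 RPKM, and Abcg5 and Abcg8, which pump sterols back to the lumen, were 1.69-fold and 1.73-fold lower. In these sterol genes LCWE replicate 1 was the nearest to PBS and LCWE replicate 4 the farthest.

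Plin2, a coat protein of lipid droplets, went the other way, with 14.7, 13.3 and 13.4 RPKM under PBS and 19.7, 16.5 and 19.3 RPKM under LCWE (1.32-fold higher), whereas its relative Plin3 was 1.74-fold lower.  Summed over the list, levels ran from 14692 to 27916 RPKM in the PBS libraries and from 3228 to 9494 RPKM in the LCWE libraries. Without PBS replicate 2 and LCWE replicate 4 the median was -0.67 and 16 genes were lower at an unadjusted p below 0.05.

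**Figure D2:**
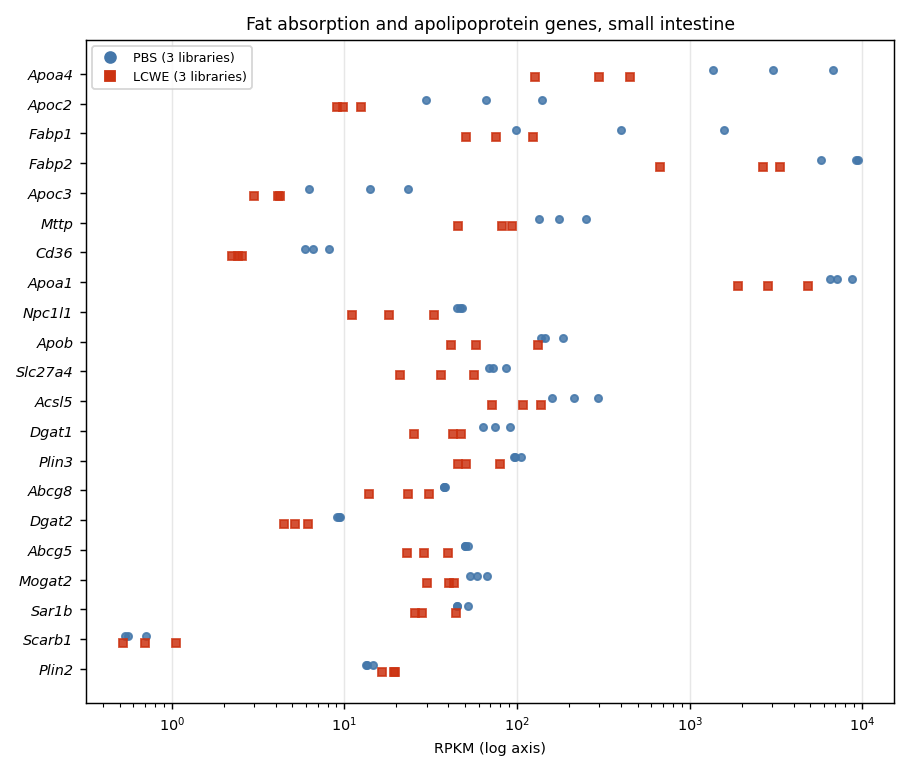
Each row is 1 of the 21 genes of fat absorption, ordered by fold change, and each mark is 1 library at its RPKM on a log axis (circles PBS, squares LCWE, 3 each). The squares lie to the left of the circles without overlap in 18 rows, and the order is turned only for Plin2 at the bottom.

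Enzymes of the brush border differed less and less evenly. Of 16 hydrolases that passed the filter (18 listed), 14 were lower and 2 higher, with a median log2 fold change of -0.53, and 7 were lower at an unadjusted p below 0.05 (4.89% of all tested genes). That count ran from 4 to 13 when single libraries were left out, the 13 arising without LCWE replicate 1 and 4 without PBS replicate 2, PBS replicate 3, LCWE replicate 2 or LCWE replicate 4. Lct, the lactase that splits milk sugar, had 86.5, 30.1 and 3.02 RPKM under PBS against 0.186, 1.46 and 0.138 RPKM under LCWE, 22.2-fold lower. Its PBS libraries differed among themselves by more than the step from PBS replicate 4 to the highest LCWE library. Alpi, the alkaline phosphatase that removes phosphate from bacterial lipopolysaccharide, had 74.0, 63.7 and 54.5 RPKM against 34.4, 24.6 and 11.7 RPKM, and Ace, a peptidase, 150, 79.2 and 58.0 RPKM against 36.2, 28.5 and 22.2 RPKM. These 3 passed with 4 groups (adjusted p = 0.0390, 0.0355 and 0.0243, limma). All 3 had at most 0.430 RPKM in every liver library, so the spread in that fit was lowered by the liver. The sucrase-isomaltase gene Sis overlapped between groups, at 172 to 200 RPKM under PBS and 95.4 to 231 RPKM under LCWE, with LCWE replicate 1 the highest of the 6.

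Transporters of sugars, peptides and amino acids were similar in pattern. All 15 passed the filter, 14 were lower and the median was -0.53. At an unadjusted p below 0.05, 6 were lower (4.89% of all tested genes were), or 9 without LCWE replicate 1 and 4 without LCWE replicate 4. Slc15a1, the peptide carrier PEPT1, had 70.0, 64.1 and 47.1 RPKM under PBS and 36.8, 20.8 and 12.6 RPKM under LCWE, and it was the 1 member that passed with 4 groups (limma adjusted p = 0.0417). Slc3a2, the heavy chain of several amino acid exchangers, was 1.53-fold and Slc16a10, an aromatic amino acid carrier, 2.12-fold lower. The sugar carriers Slc2a2 and Slc2a5 were 2.83-fold and 1.92-fold lower, while the sodium-glucose carrier Slc5a1 overlapped (163 to 199 RPKM under PBS, 93.7 to 213 RPKM under LCWE).

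Genes of mineral and vitamin uptake were divided. Of 15 tested, 7 were higher and 8 lower, with a median of -0.00. Rbp2, which carries retinol in enterocytes, had 750, 355 and 199 RPKM under PBS and 115, 69.0 and 31.4 RPKM under LCWE. S100g, the calcium buffer calbindin D9k, had 4.04, 4.49 and 4.26 RPKM under PBS and 28.3, 8.53 and 12.8 RPKM under LCWE. Slc40a1, the iron exporter ferroportin, was 2.12-fold higher (0.402, 0.652 and 0.961 RPKM against 2.25, 1.53 and 2.08 RPKM). Rbp2 and S100g passed with 4 groups (limma adjusted p = 0.0425 and 0.0402).

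Genes that mark position along the gut differed between the groups in both directions. Gata4, the factor of the proximal small intestine, had 8.34, 5.31 and 3.79 RPKM under PBS and 0.216, 1.68 and 0.280 RPKM under LCWE (log2 fold change -2.50 ± 0.47, limma adjusted p = 0.195, 0.0170 with 4 groups). The posterior gene Hoxb9 had 0.102, 0.315 and 0.936 RPKM against 11.4, 2.74 and 9.70 RPKM, 8.23-fold higher (adjusted p = 0.186, 0.0144 with 4 groups). For both, PBS replicate 4 was the PBS library nearest to LCWE and LCWE replicate 2 the LCWE library nearest to PBS. The labels give no segment of the intestine, so the stretch sampled and the treatment cannot be told apart. The part of the stretch sampled in the results on fat absorption, hydrolases, transporters, bile acid genes and xenobiotic metabolism was not tested. Nor was it tested for any other intestinal result here, among them those on Rbp2, Gip, Gcg, Slc9a3, the claudins and the goblet cell genes.

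Hox genes encode the factors that set position along the body axis. Of 36 listed, 31 were in the table and 19 passed the filter, with 14 higher, 5 lower and a median log2 fold change of 0.50. The groups did not overlap for 10 genes, all higher, against 13.2% of all tested genes, and 9 were higher at an unadjusted p below 0.05 (7.69% of all). Without PBS replicate 2 and LCWE replicate 4, 6 were higher and 1 lower at that p, and the median was 0.18. Hoxb3, Hoxb4, Hoxb6, Hoxb7, Hoxb8, Hoxb9 and Hoxc9 passed with 4 groups, all higher (0.419% of all genes in that fit were). Of these 7, 6 are neighbours in the Hoxb cluster, whose overlapping transcripts may share reads. Hoxc9 passed the filter through the LCWE libraries alone, from which its higher direction and lack of overlap follow.

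Hoxb6 had 1.71, 2.54 and 4.97 RPKM under PBS and 37.0, 8.31 and 26.2 RPKM under LCWE, and Hoxb7 had 3.99, 5.20 and 8.04 RPKM against 39.4, 13.1 and 34.0 RPKM. Hoxb8 was 4.09-fold and Hoxb5 2.56-fold higher, and the more anterior Hoxb4 1.96-fold, while Hoxb3 differed by 0.997 ± 0.17 on the log2 scale. Of the tested Hoxb genes, the fold was thus smallest for Hoxb2 (0.488 to 0.710 RPKM under PBS, 0.712 to 1.17 RPKM under LCWE) and largest for Hoxb9. Hoxa2, Hoxa5, Hoxa6 and Hoxa7 overlapped between the groups, all between 0.256 and 1.58 RPKM, as did Hoxc4, Hoxc5, Hoxc6, Hoxc8 and Hoxd8. Hoxb13 and Hoxd13, which mark the hindgut end, were at or near 0, with at most 0.0950 RPKM in any library.

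Bile acid recovery is a task of the ileum. Of 9 listed genes 8 passed the filter, 7 of them higher, with a median of 0.69. The 1 lower member was Abcc2, which had the smallest p of the list (3.14-fold, limma adjusted p = 0.158, 0.0253 with 4 groups). Slc10a2, the apical sodium-bile acid carrier, had 1.51, 17.6 and 68.4 RPKM under PBS and 259, 70.4 and 112 RPKM under LCWE, so that PBS replicate 4 and LCWE replicate 2 almost met (limma adjusted p = 0.362). Fabp6, the bile acid binding protein of ileal cells, had 69.4, 1716 and 2991 RPKM under PBS and 4837, 4843 and 3517 RPKM under LCWE (limma adjusted p = 0.449). The groups did not overlap, but PBS replicate 2 lay far below the other two PBS libraries. Nr1h4, the bile acid receptor FXR, had 12.2, 14.6 and 21.6 RPKM under PBS against 49.3, 30.2 and 41.0 RPKM under LCWE (2.46-fold, adjusted p = 0.204, 0.0170 with 4 groups). The basolateral exporter Abcc3 was 1.49-fold higher. Slc51b and Fgf15 overlapped between the groups, Fgf15 with 0.529 to 3.86 RPKM under PBS and 1.47 to 2.45 RPKM under LCWE.

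Among 18 tested transcription factors of the gut, 11 were higher and 7 lower, and Gata4 and Creb3l3 were the 2 that passed with 4 groups. Creb3l3, a membrane-bound factor that activates Apoa4, Apoc2 and other lipid genes, had 77.4, 64.9 and 47.3 RPKM under PBS against 19.6, 13.8 and 7.58 RPKM under LCWE (4.72-fold lower, limma adjusted p = 0.186, 0.0135 with 4 groups). Cdx1, an intestinal homeobox factor, was 1.31-fold higher. The median of the list was 0.11, the same as for all genes. Of 11 colon markers only 4 passed the filter. Car4, an apical carbonic anhydrase, had 66.5 to 87.3 RPKM under PBS and 33.4 to 49.5 RPKM under LCWE.

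**Figure D3:**
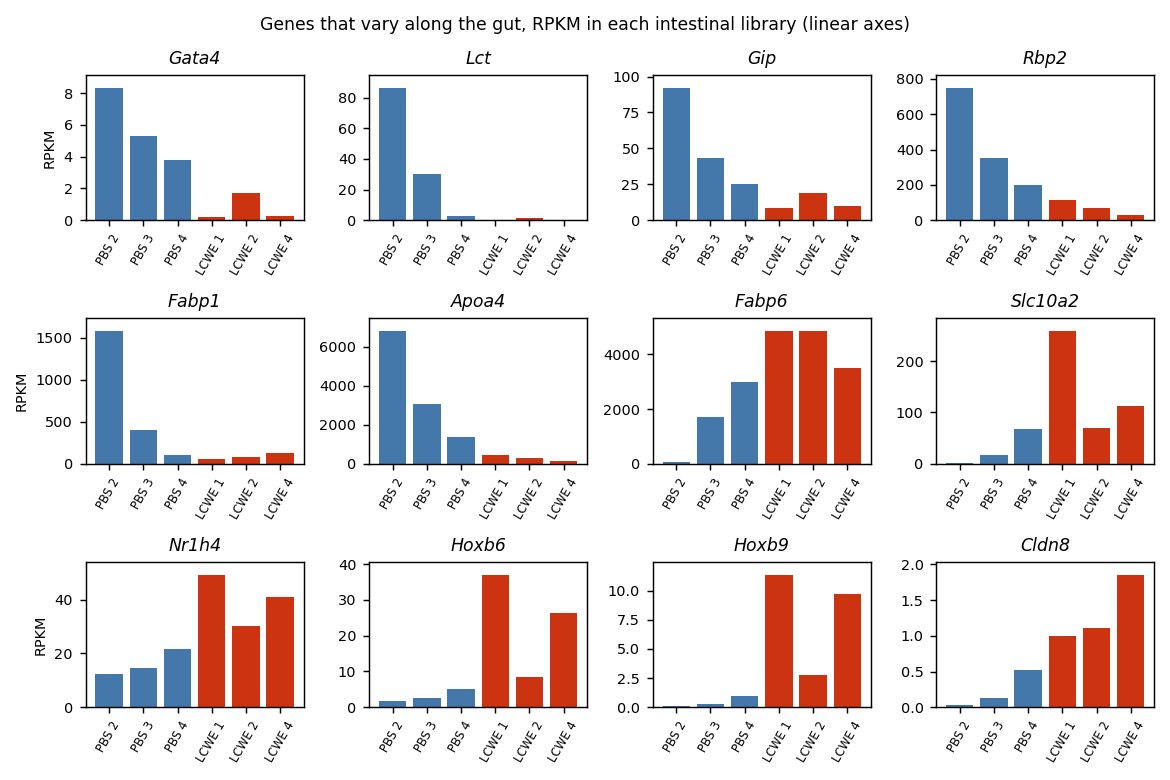
Each panel shows 1 gene, with RPKM on a linear axis from 0 and 1 bar per library (blue PBS, red LCWE, labelled with the replicate number). Gata4, Lct, Gip, Rbp2, Fabp1 and Apoa4 are highest in PBS replicate 2 and mostly low in LCWE (Fabp1 is higher in LCWE replicate 4 than in PBS replicate 4), and Fabp6, Slc10a2, Nr1h4, Hoxb6, Hoxb9 and Cldn8 are lowest in PBS replicate 2 and high in LCWE.

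Xenobiotic metabolism was lower under LCWE beyond the leading P450 genes. All 28 listed enzymes, exporters and receptors passed the filter, 2 of them through 1 group alone (Cyp2c66 and Cyp1a1, both through PBS). There were 22 lower and 6 higher genes, and the median log2 fold change was -0.64. At an unadjusted p below 0.05, 15 were lower (4.89% of all tested genes were) and 1 higher. Without overlap 16 were lower (6.15% of all), and 7 passed with 4 groups, all lower (0.725% of all). The 7 were Cyp3a11, Cyp3a25, Cyp2b10, Cyp2c66, Cyp2d26, Cyp1a1 and Gstm3. For Cyp2c66 and Cyp1a1 the lower direction and the lack of overlap follow from passing the filter through PBS alone. Counts of lower genes at that p lay between 12 and 16 in every setting tried, and without PBS replicate 2 and LCWE replicate 4 there were 12, with a median of -0.38.

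Gstm3, a glutathione transferase, had 41.2, 50.1 and 52.9 RPKM under PBS and 4.55, 15.6 and 3.90 RPKM under LCWE (6.80-fold lower, limma adjusted p = 0.186, 0.0144 with 4 groups). Cyp2d26 was 2.54-fold, Cyp3a25 2.15-fold and Cyp3a13 2.91-fold lower, the last from 106 to 123 RPKM under PBS down to 23.7 to 76.0 RPKM under LCWE. Cyp1a1, the classical target of the aryl hydrocarbon receptor, had 1.60, 0.863 and 1.85 RPKM against 0.392, 0.496 and 0.487 RPKM. The most abundant P450 of the list per length, Cyp4f14, was 1.79-fold lower.

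Other conjugating enzymes were divided, Ugt1a1 being 1.58-fold and Sult1b1 1.54-fold lower while Gsta4 was 1.28-fold higher. Of the receptors that induce these enzymes, Nr1i3 (CAR) was 1.80-fold lower, at 4.50, 3.09 and 2.06 RPKM against 1.09, 1.78 and 1.69 RPKM. Nr1i2 (PXR), which drives Cyp3a11, overlapped between the groups, with 42.5 to 49.2 RPKM under PBS and 33.3 to 54.2 RPKM under LCWE. Gsta4 was the 1 member higher at an unadjusted p below 0.05, with overlapping groups.

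**Figure D4:**
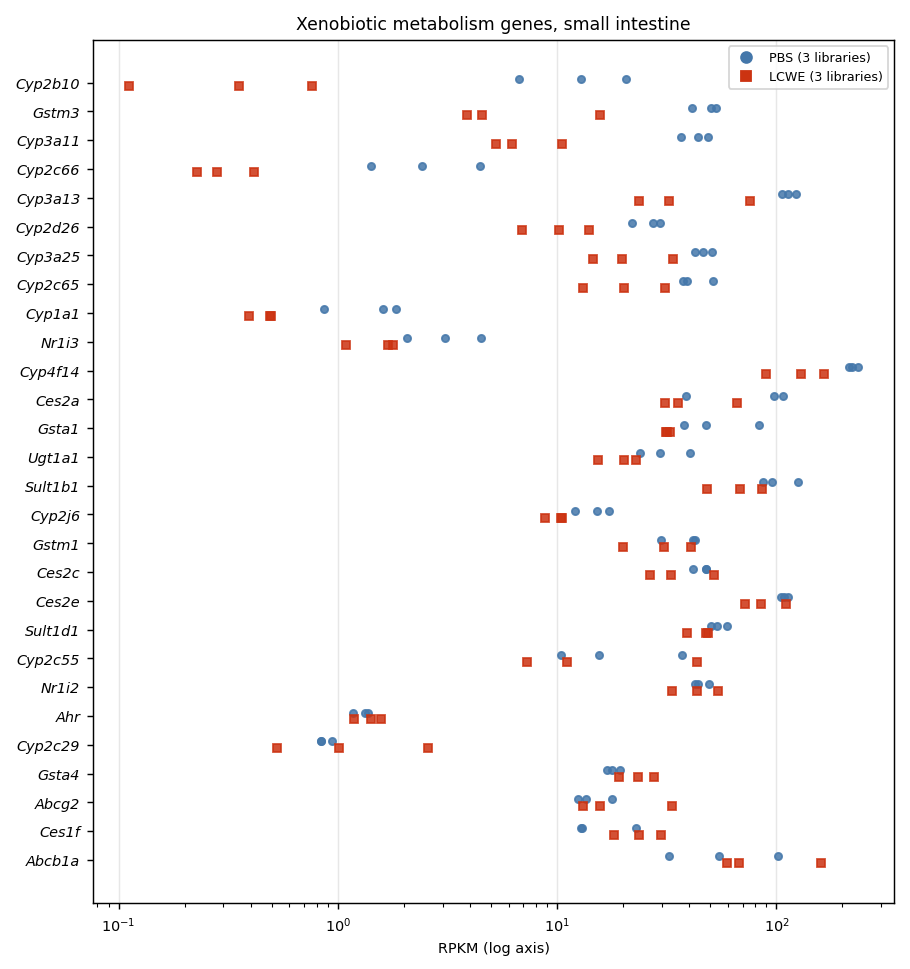
Each row is 1 of the 28 genes of xenobiotic metabolism, ordered by fold change, and each mark is 1 library at its RPKM on a log axis (circles PBS, squares LCWE, 3 each). The widest gaps between circles and squares belong to Cyp2b10, Gstm3 and Cyp3a11, and the rows at the bottom overlap.

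Fluid transport and tight junctions held single large differences within lists whose medians were near 0. Of 17 genes of guanylin signalling and ion transport, 5 were higher and 12 lower (median -0.06). At an unadjusted p below 0.05 there were 3 in each direction (7.69% of all tested genes were higher and 4.89% lower). Without LCWE replicate 1 there were 5 lower at that p, and without LCWE replicate 2 there was 1 higher. Beside Guca2b, Slc9a3, the apical sodium-proton exchanger that absorbs salt, had 44.9, 25.3 and 13.9 RPKM under PBS and 3.81, 8.10 and 2.55 RPKM under LCWE (5.30-fold lower, limma adjusted p = 0.219, 0.0202 with 4 groups). Cftr, the chloride channel that drives secretion, had 10.9 to 13.4 RPKM under PBS and at least 16.8 RPKM in each LCWE library (1.48-fold higher, limma adjusted p = 0.213, 0.0381 with 4 groups). The water channel Aqp7 was 2.22-fold lower.

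Of 20 genes of junctions and adhesion 9 were higher and 11 lower (median -0.02). Next to Cldn2, Cldn8 was 2.55-fold higher, at 0.0334, 0.133 and 0.518 RPKM against 0.991, 1.11 and 1.85 RPKM, and both passed with 4 groups. Cldn4, a sealing claudin, was 2.87-fold lower and Cldn15, the pore-forming claudin of the villus, 1.45-fold lower. General markers of the epithelium were divided 6 to 6, with a median of 0.00. Their summed level ranged from 9348 to 9669 RPKM under PBS and from 7494 to 11219 RPKM under LCWE. The keratins Krt18 and Krt19 were 1.47-fold and 1.35-fold higher, and Cdh17, an intestinal cadherin, had 150 to 174 RPKM under PBS and 96.1 to 155 RPKM under LCWE.

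Genes of the secretory cells differed less than the absorptive ones, and mostly in the other direction for goblet cells. Of 16 goblet cell genes 13 were higher and 3 lower, with a median log2 fold change of 0.36. There were 8 members higher at an unadjusted p below 0.05 (7.69% of all tested genes) and 0 lower. The same number was higher without overlap (13.2% of all), and 1 (Klk1) passed with 4 groups. Agr2, a disulfide isomerase needed for mucin folding, had 237, 250 and 251 RPKM under PBS and 314, 366 and 349 RPKM under LCWE. Creb3l4 was 1.43-fold higher, the mucin gene Muc2 1.36-fold, Clca1 1.38-fold and Atoh1, the factor that commits cells to the secretory fate, 1.58-fold. The median stayed above that of all genes after median-ratio scaling (0.24 against 0.01).

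Paneth cell genes did not separate. Of 18 tested, 9 were higher and 9 lower, with a median of -0.01, and 0 reached an unadjusted p below 0.05. Lysozyme, Lyz1, ranged from 2890 to 2960 RPKM under PBS and from 2212 to 3487 RPKM under LCWE. The alpha defensin Defa23 had 2876, 3185 and 3105 RPKM against 1831, 2680 and 3182 RPKM, with LCWE replicate 1 the lowest, and reads of near-identical defensin copies may have been split. Reg3b, a secreted antimicrobial lectin, varied more within than between groups (972, 1058 and 3068 RPKM against 2065, 974 and 1831 RPKM). Of 16 REG and antimicrobial genes 8 were higher and 8 lower, and Reg4 (1.49-fold) and Saa3 (1.77-fold) were the higher ones at an unadjusted p below 0.05.

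Of 16 enteroendocrine genes 12 were higher and 4 lower (median 0.18), a division near that of all genes, and with median-ratio scaling it was 9 to 7. Gip, the incretin of proximal K cells, had 92.2, 43.5 and 25.0 RPKM under PBS and 8.39, 18.8 and 10.2 RPKM under LCWE (3.85-fold lower, limma adjusted p = 0.245, 0.0425 with 4 groups), opposite to Gcg. The pan-endocrine granin Chga overlapped between groups, with 108 to 113 RPKM under PBS and 86.3 to 109 RPKM under LCWE. Tuft cell genes were higher in 9 of 10 (median 0.16, 0 at an unadjusted p below 0.05 and 3 without LCWE replicate 1), the largest being Dclk1 at 1.29-fold.

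Stem cell and Wnt target genes were higher in 15 of 17, with a median of 0.16, close to that of all genes, and 3 reached an unadjusted p below 0.05 (Prom1 1.60-fold, Cd44 1.54-fold and Myc 1.60-fold). There were 7 without LCWE replicate 1 and 1 without both PBS replicate 2 and LCWE replicate 4. Lgr5 ranged from 0.610 to 0.801 RPKM under PBS and from 0.709 to 0.998 RPKM under LCWE. Of 24 genes of the cell cycle and DNA replication 23 were higher, with a median of 0.25. At an unadjusted p below 0.05, 4 were higher (7.69% of all tested genes were), among them Mcm4 (6.15, 5.92 and 6.20 RPKM against 6.99, 9.37 and 9.76 RPKM). LCWE replicate 1 was the lowest of its group for Mcm2 and Mcm4, and without it 17 of the 24 were higher at that p, whereas without PBS replicate 2 and LCWE replicate 4 there were 0.

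Chaperones of the endoplasmic reticulum were higher as a group. Of 17 tested genes of endoplasmic reticulum stress and ATF4 signalling, 14 were higher and 3 lower, with a median log2 fold change of 0.42 (0.30 after median-ratio scaling). At an unadjusted p below 0.05, 11 were higher (7.69% of all tested genes) and 2 lower (4.89% of all), and without overlap 11 were higher (13.2% of all) and 2 lower (6.15% of all). Hspa5, the chaperone BiP, had 180, 184 and 217 RPKM under PBS and 278, 277 and 373 RPKM under LCWE. Pdia4, an oxidoreductase of the same compartment, had 172, 155 and 179 RPKM against 229, 254 and 335 RPKM and was the 1 member that passed with 4 groups (limma adjusted p = 0.0402).

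Creld2 was 1.70-fold, Hyou1 1.51-fold, Dnajc3 1.33-fold and Xbp1, the spliced factor of the unfolded protein response, 1.34-fold higher. The 3 lower genes were Ddit3, Trib3 and Atf4, the last a translation-controlled stress factor, and Atf4 was chosen after its values were seen (92.3, 94.7 and 107 RPKM against 84.9, 91.7 and 87.0 RPKM). Ddit3 (CHOP) was 1.33-fold lower at 27.8, 29.4 and 39.0 RPKM against 22.7, 22.3 and 26.8 RPKM, and Trib3 was 1.44-fold lower with overlap. In both Hspa5 and Creld2 the highest library was LCWE replicate 4. Without PBS replicate 2 and LCWE replicate 4, 7 of the 17 were higher at an unadjusted p below 0.05. Goblet and plasma cells are rich in these chaperones, and the medians of their genes were also above 0 (0.36 and 0.38). Their part in the chaperone levels was not tested.

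Genes of plasma cells and antibody secretion were higher in 12 of 13, with a median of 0.38. At an unadjusted p below 0.05, 3 were higher (7.69% of all tested genes were). That count was 8 without LCWE replicate 1, 1 without PBS replicate 2, 2 without PBS replicate 4 and 0 without PBS replicate 3 or LCWE replicate 4, where the last gave a median of 0.21. Derl3 had 2.18, 2.13 and 3.66 RPKM under PBS and 3.87, 4.03 and 6.32 RPKM under LCWE, Sdc1 was 1.42-fold and Pigr, the receptor that carries IgA into the lumen, 1.29-fold higher. The summed level was 3908 to 4635 RPKM under PBS and 4470 to 7628 RPKM under LCWE. All 14 B cell genes were higher but 0 at an unadjusted p below 0.05 (median 0.26), and the groups overlapped for each. Without LCWE replicate 1, 4 reached that p and the median was 0.48. Without PBS replicate 2, 9 were higher and the median was 0.04, without LCWE replicate 2 the median was 0.09, and without both PBS replicate 2 and LCWE replicate 4 they were divided 7 to 7.

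T cell, intraepithelial lymphocyte and natural killer genes were higher in 14 of 18 (median 0.22, or 0.09 without PBS replicate 4 and 0.43 without PBS replicate 2), with Cd8b1 at 1.91, 2.17 and 2.47 RPKM against 3.90, 2.95 and 4.82 RPKM and Lck differing by 0.38 ± 0.12 on the log2 scale. Monocyte and macrophage genes were higher in 15 of 17 (median 0.27), yet only Itgam (log2 difference 0.38 ± 0.15) was so at an unadjusted p below 0.05. Without LCWE replicate 1 there were 14 at that p and a median of 0.44, and without LCWE replicate 4 or PBS replicate 4 there were 0. With the replicate number as a block, which also sets LCWE replicate 1 aside, there were 11. Only 5 of 15 neutrophil markers passed the filter, and Ly6g had no read in any library. The exception was Cd177, with 2.35, 1.87 and 4.17 RPKM under PBS and 6.73, 9.14 and 9.44 RPKM under LCWE (2.80-fold, limma adjusted p = 0.186, 0.0144 with 4 groups), while S100a9 ranged from 0.479 to 1.01 RPKM under PBS and from 0.828 to 1.13 RPKM under LCWE.

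Of 16 eosinophil and mast cell markers 6 passed the filter, 2 higher and 4 lower (median -0.25), and without LCWE replicate 1 they were divided 3 to 3. Ear2 had 0.608 to 1.02 RPKM under PBS and 0.321 to 0.739 RPKM under LCWE, Mcpt2 had 1.42 to 4.37 RPKM against 0.665 to 2.07 RPKM, and Kit, which was higher, had 2.28 to 2.96 RPKM against 3.01 to 4.23 RPKM.

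Interferon response genes were divided. Of 35 tested, 20 were higher and 15 lower (median 0.13, against 0.11 for all genes). At an unadjusted p below 0.05, 7 were higher (7.69% of all tested genes were) and 3 lower (4.89% of all), and 0 passed with 4 groups. The higher ones were mostly GTPases of the interferon gamma response, such as Gbp4 (5.53, 4.93 and 3.75 RPKM against 7.31, 8.46 and 7.30 RPKM), Gbp5 (1.43-fold), Iigp1 (1.84-fold) and Tgtp1 (1.95-fold). The lower ones were Isg15 (25.6, 13.9 and 14.2 RPKM against 12.8, 7.55 and 10.4 RPKM), Mx1 (1.35-fold) and the chemokine Cxcl10 (1.40-fold). The count of higher genes was 3 after median-ratio scaling, 4 after quantile scaling and between 3 and 10 when single libraries were left out, with 3 each without PBS replicate 3 and without PBS replicate 4.

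Antigen presentation differed little. MHC class II genes had a median of 0.08 (7 of 10 higher) and class I genes of 0.03 (8 of 12 higher), and both medians turned below 0 after median-ratio scaling. Nlrc5, the transactivator of class I genes, was 1.72-fold higher (3.94, 3.59 and 2.52 RPKM against 7.29, 5.35 and 5.58 RPKM). Among 29 listed cytokines, chemokines and adhesion molecules 18 passed the filter (13 higher, 5 lower, 1 higher at an unadjusted p below 0.05 and 5 without LCWE replicate 1), and Il6, Il22, Il17a, Ifng and Il10 were among those that did not. Ccl28, an epithelial chemokine that draws IgA plasma cells, had 11.6, 9.26 and 12.9 RPKM under PBS and 19.4, 19.2 and 23.2 RPKM under LCWE (1.80-fold, limma adjusted p = 0.186, 0.0160 with 4 groups). Il18, made by enterocytes and released after inflammasome activation, had 10.9, 9.06 and 13.1 RPKM against 4.94, 6.51 and 7.47 RPKM.

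Of 20 genes of pattern recognition 15 were higher (median 0.22), 6 of them at an unadjusted p below 0.05 (7.69% of all tested genes were). That count was 1 without LCWE replicate 2, 2 without PBS replicate 3 and 3 without PBS replicate 2. Tlr4, the receptor of lipopolysaccharide, had 0.184, 0.304 and 0.553 RPKM against 0.827, 0.799 and 0.824 RPKM, and Tlr1 was 1.25-fold higher. Gsdmd, the pore of pyroptosis, was lower, at 124, 101 and 101 RPKM against 89.3, 69.0 and 50.2 RPKM. Nlrp3 did not pass the filter.

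Genes of the gut wall were measured in all libraries. All 17 fibroblast and matrix genes and all 12 endothelial genes were higher, with medians of 0.34 and 0.22, but only 1 of these 29 (Timp1) reached an unadjusted p below 0.05. Without LCWE replicate 1, 13 of the 17 fibroblast and 6 of the 12 endothelial genes were higher at that p. With the replicate number as a block, which also sets LCWE replicate 1 aside, there were 13 and 8. Without both PBS replicate 2 and LCWE replicate 4, 11 and 7 of them were higher in all and 0 at that p. The summed level of the fibroblast genes in LCWE replicate 1 was 266 RPKM, against 421 and 494 RPKM in the other two LCWE libraries and 263 to 343 RPKM under PBS. Smooth muscle genes had a median of 0.08, which was -0.03 after median-ratio scaling. Neuron and glia genes had a median of 0.19.

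Fat cell markers were the lists' extreme. Adipoq, the adipocyte hormone adiponectin, had 1.18, 8.01 and 14.2 RPKM under PBS and 0.612, 0.250 and 0.128 RPKM under LCWE, and Cfd had from 0.908 up to 18.6 RPKM against 0.592, 0.125 and 0.320 RPKM. Both were high in PBS replicates 3 and 4 and low in PBS replicate 2. Lep, Plin1, Retn and Adig were under the filter but highest in the same 2 libraries. Cidec, which enterocytes also express, was even over the PBS libraries (32.1, 32.0 and 29.5 RPKM) and had 12.3, 5.17 and 3.63 RPKM under LCWE. The summed level of the 9 fat cell markers was 38.5 to 90.3 RPKM under PBS and 8.12 to 16.2 RPKM under LCWE, and the part of fat tissue in other results was not tested.

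Hepatocyte genes stood out in 1 library. Alb was at 145 RPKM in LCWE replicate 4 and between 51.6 and 60.2 RPKM in the other 5, and Serpina1a was at 82.3 RPKM against 26.2 to 33.1 RPKM. The summed level of the 10 markers was 337 RPKM in that library and 123 to 146 RPKM in the others. Pancreatic Pnliprp2 and Clps overlapped between the groups, with 12 of 15 exocrine markers in the table and 3 past the filter. Haemoglobin genes overlapped as well, with Hbb-bs between 4.14 and 8.56 RPKM in all libraries.

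Metabolic and timing genes differed little. Of 23 genes of cholesterol synthesis 20 were higher, with a median of 0.27, and 0 reached an unadjusted p below 0.05. Without PBS replicate 4 there were 5, and without PBS replicate 2 the median was 0.04. Genes of fatty acid oxidation were divided 10 to 9 (median 0.03, or -0.08 after median-ratio scaling). Clock genes had a median of -0.03, with Per2 at 6.79, 7.17 and 11.6 RPKM against 11.5, 10.7 and 20.5 RPKM. Of 15 immediate early genes 10 were lower, 4 at an unadjusted p below 0.05 (2 without any 1 of PBS replicates 3 and 4 and LCWE replicates 2 and 4), led by Fos (19.9, 29.7 and 42.5 RPKM against 18.0, 10.1 and 11.8 RPKM) and Zfp36 (1.47-fold). The 4 RNAs of the signal recognition particle and 7SK were all lower, with a median of -0.51, but overlapped between the groups, and reads of near-identical 7SL copies may have been split.

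**Figure D5:**
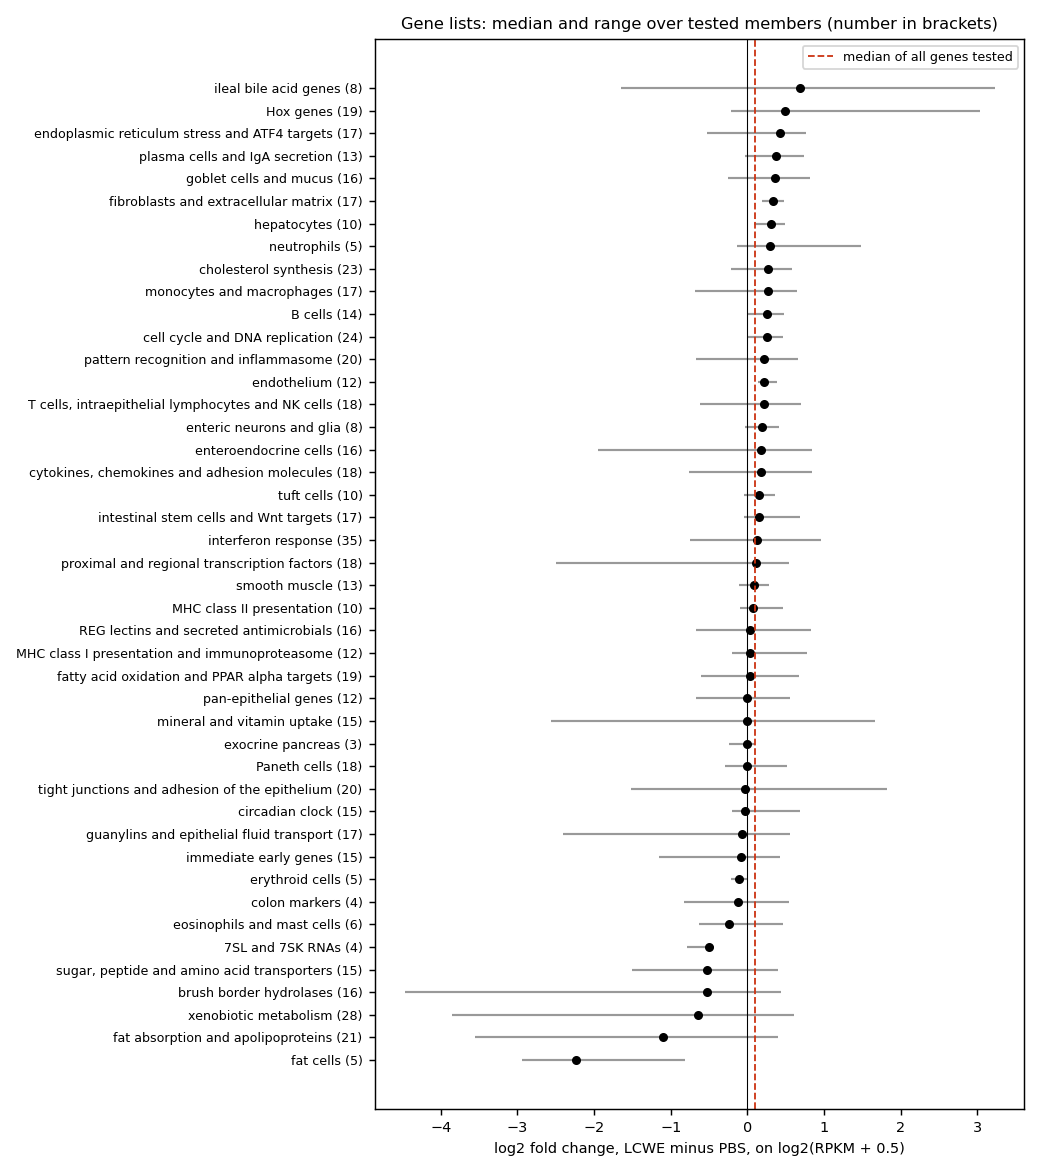
Each row is 1 gene list with at least 1 tested member (number in brackets), the point is the median log2 fold change, LCWE minus PBS, and the grey line runs from the lowest to the highest member. The dashed line is the median of all tested genes (0.11). Fat cells, fat absorption and xenobiotic metabolism lie farthest below it, and ileal bile acid genes, Hox genes and endoplasmic reticulum stress farthest above.

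The authors' deposited table lists 220 intestinal genes, of which 42 were higher and 178 lower in LCWE. Their largest unadjusted p was 0.0498 and their smallest absolute log2 fold change 1.005. The smallest false discovery rate in the authors' deposited table was 0.469. The counts by unadjusted p given above (1346 higher and 856 lower) had no limit on the fold, so the divisions are not at like thresholds. Of the 220, 186 were tested here, all 186 with the same direction, and 167 had an unadjusted p below 0.05. Both tests used the same libraries and are not independent.

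The difference was also set against that in the liver of the same treatment groups. The LCWE effect differed between intestine and liver for 137 of 18619 genes (0.736%), with 99 more negative (0.532%) and 38 more positive (0.204%) in the intestine, by a limma test of the interaction. That count was 28 with replicate number as a block, and leaving out single libraries gave 20 (without liver PBS replicate 3) to 461 (without intestinal LCWE replicate 1). Cyp2b10 was lower in the intestine and higher in liver, where it had 0.148, 0.291 and 0.0722 RPKM under PBS and 1.65, 1.33 and 2.32 RPKM under LCWE. The difference of the log2 effects was -5.60 ± 0.51 (adjusted p = 0.00178, limma).

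Cyp3a11 had 356 to 463 RPKM in liver PBS libraries and 371 to 434 RPKM in liver LCWE libraries, so that its lower level was seen in the intestine (difference -2.44 ± 0.30, limma adjusted p = 0.00973). Nr1h4 was higher in the intestine, and in liver it had 30.8 to 34.2 RPKM under PBS and 22.4 to 25.2 RPKM under LCWE (difference 1.70 ± 0.29, adjusted p = 0.0273). Creld2 was higher in both, from 43.0 to 82.5 RPKM up to 363 to 406 RPKM in liver, and its effect was smaller in the intestine (difference -1.89 ± 0.30, adjusted p = 0.0231). Among the groups, the liver comparison called 582 of 14404 genes (4.04%), and intestine and liver were fitted on different sets of genes.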

How the data were processed

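Total RNA of small intestine and liver (TRIzol, DNase I, standard Illumina library, per the labels' protocols) was sequenced. The table deposited by the authors gives RPKM per gene and library. Per the submitters' processing notes, the build was mm10 and the tools included edgeR 3.12.1, featureCounts, Subread 1.5.1 and Trimmomatic 0.36. What each was used for is not stated, and the strand setting and aligner are not given in the sources used here. Of 16 library columns 12 matched the samples, and 4 matched none and were not used. Reads per gene and library were recovered from RPKM and gene length, and 100% of them came out whole (tolerance 0.001). The authors' deposited comparison table holds p-values, false discovery rates and log2 fold changes, used only to count its intestinal genes.

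Genes with at least 0.5 RPKM in 3 or more of the 6 intestinal libraries were tested by limma (version 3.58.1, under R 4.3.3) after the transform log2(RPKM + 0.5), with a trended prior variance, two-sided, and were called at a Benjamini-Hochberg adjusted p below 0.05. On this scale the changes of weakly expressed genes are understated. Tissues were compared by 1 contrast over 4 groups and 12 libraries. With 3 libraries a group, the smallest two-sided p of an exact permutation test is 0.1. The 45 gene lists were described by counts and medians with no test. The rule for naming asked for the 12 largest called changes per direction among genes without overlap and with a mean of at least 1 RPKM in a group, leaving out predicted genes, antibody and receptor segments, ribosomal pseudogenes and mitochondrial genes. None was called, so by the same rule the 12 with the smallest p stand in for them. It also named 3 genes a list, again by p (levels only for other tissues), and Alb and Fabp2. Members of the fat absorption, Hox and bile acid lists are given freely, and other members named were chosen after their values were seen. Members and lists were chosen with earlier results of these data known. Positions are those of the deposited table, and 148 of 149 named genes matched GENCODE M21. On simulated data with 200 changed genes, 28.5% of 2-fold changes (17729 genes tested) and 80.0% of 4-fold changes (17691 genes tested) were recovered, with 7 and 11 false calls. The simulated scatter was independent between genes, whereas the first component of the real libraries held 43.1% of the variance. These shares may therefore not hold for the real data.

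The settings varied were the pseudocount (0.1 or 1), the filter (none, or 1 RPKM), the scaling (quantile or median-ratio), voom on the recovered reads, robust moderation, the replicate number as a block, 1 fit over 4 groups, a fold of at least 2, each library left out and, added after seeing the data, PBS replicate 2 and LCWE replicate 4 left out together. Some genes named by the rule are not reported here.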

Additional observations from a re-analysis of the deposited data

Results flagged for a closer look

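For the following genes, the LCWE effect in the intestine differed from that in liver by limma's interaction test at an adjusted p below 0.05. Values are the intestinal minus the liver log2 effect, and 0.736% of 18619 genes passed this test. More negative in the intestine were Cyp2b10 (-5.60), S100a9 (-2.66), Cyp3a11 (-2.44), Creb3l3 (-2.18), Creld2 (-1.89), Cyp4b1 (-1.88), Ear2 (-1.56), Cd36 (-1.51), Npl (-1.46), Guca2b (-1.29), Pcx (-1.08) and Gbp3 (-0.99). For S100a9, Creld2, Ear2 and Gbp3 the gene rose in liver (adjusted p = 0.0185, 0.00557, 0.0195 and 0.00557, limma on liver alone), and did not pass in the intestine. More positive in the intestine were Rn7s6 (4.98), Rn7s2 (4.03), Rn7s1 (3.73), Cldn2 (2.20), Nr1h4 (1.70), Arhgef10l (1.14), Sgf29 (1.004), Ccl28 (0.97) and Gcg (0.93). The 7SL genes Rn7s1, Rn7s2 and Rn7s6 fell in liver (log2 fold change -4.18, -4.59 and -5.77, limma), where Rn7s6 had no read in LCWE replicates 2 and 4. In liver, Gcg, Guca2b, Npl and Ccl28 were below 0.5 RPKM in every library, so that for them the difference is nearly the intestinal value alone.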

How the results depend on the processing

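In the intestine alone 0 genes passed under each setting but 3. The fit over 4 groups gave 213 calls (122 with a fold of at least 2), and leaving out single libraries gave 0 to 70, the 70 arising when LCWE replicate 1 was dropped and 4 when LCWE replicate 2 was. The same replicate number does not mark a shared animal in the labels, and only 2 numbers occur in both groups. In the intestine the block therefore absorbs LCWE replicate 1 and PBS replicate 3, and the contrast rests on replicates 2 and 4. It is no separate check beside leaving out LCWE replicate 1. Deviations of same-numbered libraries correlated at 0.092 and 0.115. The replicate block gave 0 calls in the intestine, with 4669 genes at an unadjusted p below 0.05 against 2202 without it, and 28 calls for the difference between tissues. That difference had 137 calls, 207 with median-ratio scaling and 20 to 461 without single libraries, moving by over 1.5 times without intestinal LCWE replicates 1 (461) or 4 (32), PBS replicates 2 (58), 3 (24) or 4 (210), and liver LCWE replicates 1 (38) or 2 (31) or PBS replicates 3 (20) or 4 (88). The cause was not tested.

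Of 3188 fold changes of 190 genes under the alternatives, 3118 kept direction and side of the threshold, 66 passed where they had not, and 4 changed sign. Since 0 genes passed in the main setting, keeping the side means not passing in either. The 3118 therefore show a kept direction and no more. Those were of Psme2, Lmod1 and Myl9. Over the settings that leave libraries out, Psme2 ran from -0.38 to 0.054, Lmod1 from -0.15 to 0.46 and Myl9 from -0.21 to 0.36, each changing sign without PBS replicate 2 and LCWE replicate 4, and Myl9 also without LCWE replicate 4 alone. Of 748 list medians 721 moved by less than the spread between replicates. Depth limits genes such as Mir7648 with 1 to 11 reads.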
